A study of Mus musculus with 9 samples.

Results

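The phospholipase C (PLC) enzymes described here are the products of 10 genes: 4 of the beta class (Plcb1, Plcb2, Plcb3, Plcb4), 3 of the delta class (Plcd1, Plcd3, Plcd4), Plce1 of the epsilon class, and Plch1 and Plch2 of the eta class. They were picked by symbol among the 55536 Ensembl genes of the count tables, and all 10 were found and passed the filter on low counts. Their difference between the groups was known when they were picked, so that difference is given as a description. Messenger RNA was sequenced from lumbar dorsal root ganglia, which hold the cell bodies of the sensory neurons of the trunk and hind limb, of adult C57Bl6 mice. An inducible conditional knock-out of the transcriptional regulator Prdm12, called icKO, gave 5 libraries, and mice labelled wild type, the control, gave 4. Both groups were taken 1 month after tamoxifen, the drug that switches on an inducible deletion. The labels name neither the promoter that drives the deletion nor the animal behind each library, so a p-value speaks only of the spread among these 9 libraries, some of which may be technical. Controls carry a wild type genotype, so loss of Prdm12 and any other allele carried by icKO mice alone cannot be told apart.

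Phospholipase C cuts the membrane lipid PIP2 (phosphatidylinositol 4,5-bisphosphate) into inositol trisphosphate (IP3), which releases calcium from internal stores, and diacylglycerol, which activates protein kinase C. Beta enzymes are driven by receptors coupled to G proteins of the Gq class, the epsilon enzyme also by Ras and Rap GTPases, and delta and eta enzymes by calcium. In sensory neurons this pathway links inflammatory and itch mediators, such as bradykinin and histamine, to the sensitivity of TRP (transient receptor potential) channels, many of which also respond to PIP2 itself.

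The 10 enzymes share a catalytic core, and 1 short stretch of it is compared here base by base. The coding sequences as a whole were not aligned. Each line gives 42 coding bases in the GENCODE M21 gene models on mm10, 5′ to 3′ along the transcript, centred near the conserved catalytic histidine, whose codon is in capitals.
Plcb1: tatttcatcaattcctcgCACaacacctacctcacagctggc
Plcb2: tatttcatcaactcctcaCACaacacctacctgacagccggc
Plcb3: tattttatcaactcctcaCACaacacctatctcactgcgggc
Plcb4: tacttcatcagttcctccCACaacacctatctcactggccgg
Plcd1: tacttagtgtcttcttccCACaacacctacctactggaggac
Plcd3: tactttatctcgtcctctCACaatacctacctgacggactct
Plcd4: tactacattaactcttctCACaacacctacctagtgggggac
Plce1: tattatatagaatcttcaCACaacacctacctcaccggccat
Plch1: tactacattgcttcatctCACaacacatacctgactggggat
Plch2: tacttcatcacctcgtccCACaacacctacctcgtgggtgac

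The histidine codon was CAC in all 10 genes. For Plch2 the stretch lies in exon 7 of 22 (chr4:155000518-155000559, minus strand), and for Plch1 in exon 7 of 23 (chr3:63753198-63753239, minus strand). Exons are those of each gene's longest coding transcript that holds the stretch. In Plcb1, Plcb2 and Plcb3 the stretch was split over exons 10 and 11, while in Plcb4 it lay within exon 13 of 37. Plch2 differed from Plcd4 at 7 of the 42 positions, fewer than from its eta class relative Plch1, at 13. The closest pair was Plcb1 and Plcb2, with 4 differences, and the most distant was Plcd1 and Plce1, with 17. Over whole transcripts, the longest run of identical bases between any of the 45 pairs was 34 bases, shared by Plcb1 and Plcb4.

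The genes lie apart in the genome, except that Plcb1 (chr2:134786067-135475258, plus strand) and Plcb4 (chr2:135659011-136014593, plus strand) are separated by 184 kb. Plcb2 is on the same chromosome (chr2:118707517-118728438, minus strand). Plcb3 (chr19:6952325-6976470, minus strand) and Plce1 (chr19:38481109-38785030, plus strand) share chromosome 19. The eta genes are on different chromosomes, Plch1 at chr3:63696234-63899472 and Plch2 (ENSMUSG00000029055) at chr4:154983115-155056784, both on the minus strand. Plcd1 is at chr9:119071527-119093502 (minus strand), Plcd3 at chr11:103070304-103101658 (minus strand) and Plcd4 at chr1:74542888-74567794 (plus strand). Of the exon bases of Plcd4, 29.8% (2101 bases) are also exon of Zfp142 on the opposite strand. How reads in this overlap were counted, by strand or not, is not given in the sources used here. Such reads may have been counted for Plcd4, for Zfp142 or for neither. For Plch2 that overlap is 2.33%, with the antisense gene Gm10564, which had 0 counts in every library.

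Libraries held 19607740 to 29481589 counts, and 3 counts, the floor used for a gene with none, equalled 0.102 to 0.153 CPM, a gene's count as a share of its library, put on 1 scale for all libraries. Prdm12 itself was at 116 to 163 CPM in control and 22.3 to 26.2 CPM in icKO libraries. Summed levels of 10 cell type marker lists overlapped between the groups in every case, and none of their 81 genes was at 0 in all libraries. The 11 sensory neuron markers summed to 12093 to 13849 CPM in control and 11354 to 13315 CPM in icKO. Control 4 had a spinal cord marker sum of 68.8 CPM against 12.4 to 19.2 CPM elsewhere, although 5 of the 8 genes of that list were too low to test. Control 2 had the highest skeletal muscle sum, 51.2 CPM, followed by icKO 1 with 31.5 CPM and the others with 4.11 to 14.2 CPM. Y-linked genes split both groups: icKO 1, icKO 2, control 1 and control 3 had sums of 98.1 to 165 CPM, and the other 5 libraries 0.104 to 3.58 CPM with high Xist. In whole ganglia, fewer cells of a type and less RNA per cell cannot be told apart.

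Plcb3 was by far the most abundant transcript of the 10 genes in the ganglia. The other PLC genes were not ranked per exon length. Divided by exon length, so that genes can be compared, its control level was 93.1 ± 11.2 CPM per kilobase (SD, n = 4), which was 75.3% of the sum over the 10 genes (73.5 to 78.3% over libraries) and above 97.7% of all 17258 genes tested. This is the beta enzyme known for coupling histamine receptors to calcium release in itch neurons. Plcb4 was next among the 10 at 7.33 ± 0.261 CPM per kilobase, so that Plcb3 exceeded it 12.7-fold. Plcd4 stood at 7.11 ± 1.05, Plcd1 at 6.01 ± 0.605 and Plcb1 at 4.47 ± 0.419 on the same scale. Plce1 followed at 2.25 ± 0.417 and Plcd3 at 1.67 ± 0.107. The eta enzymes were low, Plch2 at 0.954 ± 0.0827 and Plch1 at 0.297 ± 0.0308. Plcb2, an enzyme known from taste and blood cells, was lowest of the 10 at 0.152 ± 0.0401 CPM per kilobase.

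**Figure D1:**
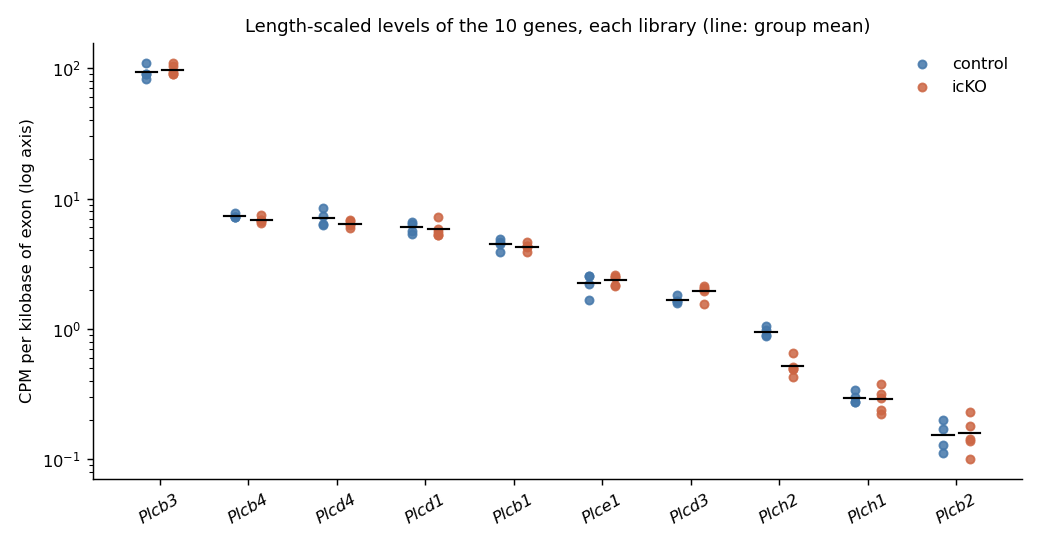
Level of each of the 10 genes in every library, as CPM per kilobase of exon on a log axis, with genes in the order of their control mean. Blue points are the 4 control and orange points the 5 icKO libraries, and lines are group means. Plcb3 stands at 93.1 in control, far above Plcb4 at 7.33, and Plch2 is the gene whose groups separate.

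Ranges over the control libraries overlapped for 3 neighbours in this order: Plcb4 with Plcd4, Plcd4 with Plcd1, and Plce1 with Plcd3. The other neighbours did not overlap. The same order held for the icKO means. With the longest transcript as the length in place of all exons, Plcb1 moved to rank 4 and Plcd1 to rank 5, and the Plcb3 share became 75.9%. Plcd4 reads shared with Zfp142 bear on its place as well.

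**Figure D2:**
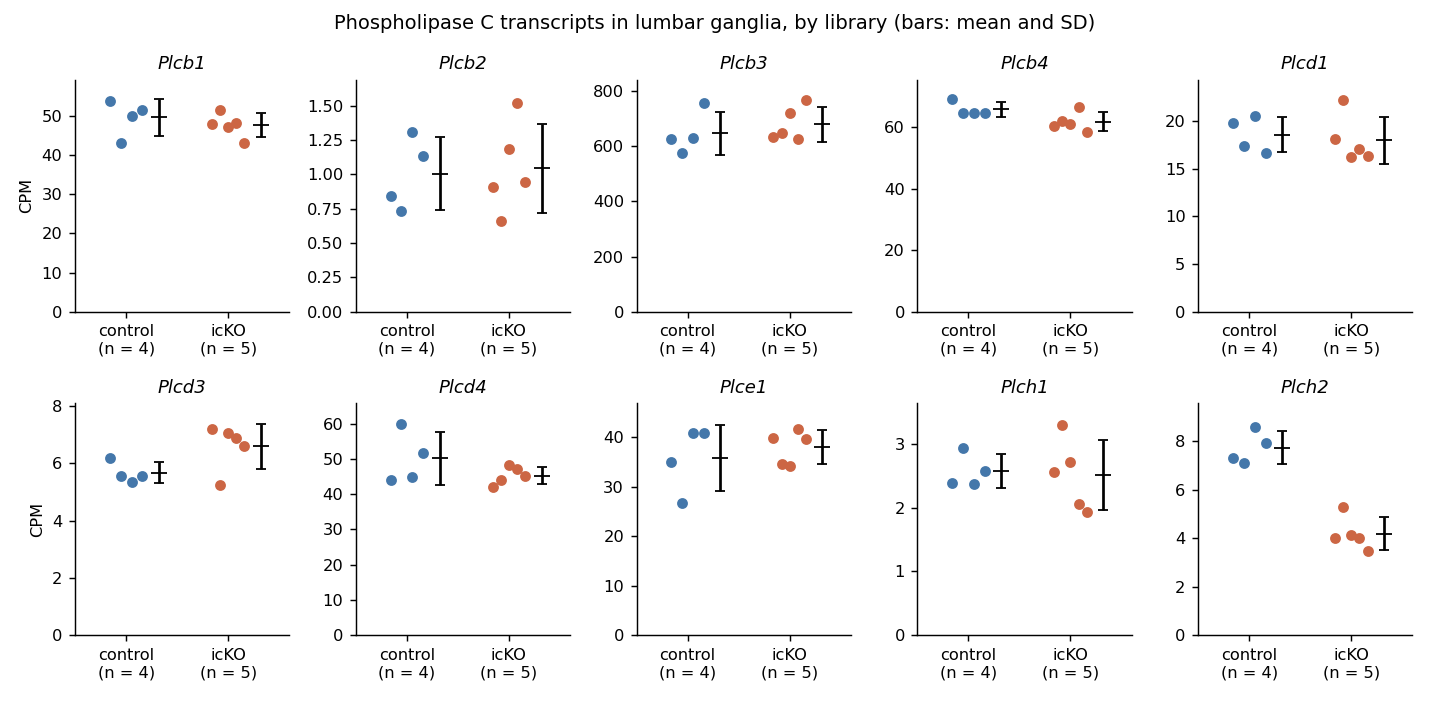
CPM of each of the 10 genes by library, with each vertical axis starting at 0. Points are libraries, and bars are the mean and SD of the 4 control and 5 icKO libraries. Plch2 lies at 7.10 to 8.60 CPM in control and 3.47 to 5.31 CPM in icKO; the groups overlap for the other 9 genes.

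Of the beta class, Plcb3 was measured most deeply, with 14097 to 20684 counts per library. It read 626, 576, 631 and 758 CPM in control 1 to 4 and 633, 648, 720, 625 and 769 CPM in icKO 1 to 5. The groups overlapped throughout, and the log2 fold change of icKO over control was 0.07 (SE 0.09, 95% interval -0.12 to 0.26). Its share of the 10 genes was 77.2% in icKO.

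Plcb4, best known from the retina and cerebellum, read 69.2, 64.4, 64.5 and 64.7 CPM in control and 60.4, 61.9, 61.1, 66.7 and 58.5 CPM in icKO. All but 1 of the icKO libraries lay under every control library, icKO 4 being the exception, and the log2 fold change was -0.09 (SE 0.05, interval -0.20 to 0.02). Plcb1, the main beta enzyme of the forebrain, read 54.0, 43.1, 50.0 and 51.6 CPM in control and 48.1, 51.6, 47.2, 48.2 and 43.0 CPM in icKO. The estimate for Plcb1 was -0.06 on the log2 scale (SE 0.07, interval -0.21 to 0.09), with the groups overlapping over almost their whole range.

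Plcb2 rested on 17 to 37 counts per library. It read 0.843, 0.735, 1.31 and 1.13 CPM in control and 0.908, 0.659, 1.18, 1.52 and 0.948 CPM in icKO, with a log2 fold change of 0.05 (SE 0.26, interval -0.52 to 0.62). Libraries of 1 group spread by 26.3% in control and 31.2% in icKO (SD over mean), where counting error alone would give 20.1% and 19.0%. At this depth the interval for Plcb2 reached past a 1.5-fold rise.

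In the delta class, the calcium-stimulated enzymes, Plcd4 read 44.0, 59.9, 44.8 and 51.8 CPM in control and 42.0, 44.1, 48.2, 47.1 and 45.1 CPM in icKO. The highest values were in control 2 and control 4, which also had the highest skeletal muscle and spinal cord marker sums, respectively. Its log2 fold change was -0.15 (SE 0.09, interval -0.33 to 0.04), and 0.03 without those libraries; the part of those tissues in the result was not tested. Zfp142, which shares exon bases with it, was at 24.1 CPM in control and 23.1 CPM in icKO.

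Plcd3 read 6.19, 5.55, 5.36 and 5.56 CPM in control and 7.20, 5.23, 7.03, 6.87 and 6.59 CPM in icKO. In icKO, 4 of 5 libraries lay above every control library, while icKO 2 lay below them all. Its log2 fold change, 0.22 (SE 0.11, interval -0.03 to 0.46), was the largest upward estimate of the 10. Plcd1, which is known from skin and hair follicles, read 19.8, 17.4, 20.5 and 16.6 CPM in control and 18.1, 22.2, 16.2, 17.1 and 16.3 CPM in icKO, with a log2 fold change of -0.05 (SE 0.10).

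Plce1, the Ras- and Rap-regulated enzyme, read 35.1, 26.8, 40.9 and 40.9 CPM in control and 39.8, 34.6, 34.1, 41.8 and 39.7 CPM in icKO. Control 2 was lowest of all 9 libraries. The log2 fold change was 0.08 (SE 0.11, interval -0.16 to 0.33), and -0.03 when control 2 was left out.

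Plch2, an eta enzyme found mainly in neurons and sensitive to calcium, was lower in icKO. It read 7.33, 7.10, 8.60 and 7.93 CPM in control 1 to 4 and 4.00, 5.31, 4.14, 4.03 and 3.47 CPM in icKO 1 to 5. Every icKO library lay under every control library, the nearest being icKO 2 at 5.31 and control 2 at 7.10 CPM. Means were 7.74 ± 0.671 CPM (SD, n = 4) in control and 4.19 ± 0.675 CPM (SD, n = 5) in icKO, or 1.85-fold lower. The log2 fold change was -0.88 (SE 0.13, 95% interval -1.16 to -0.61), with an adjusted p of 0.00498 (edgeR quasi-likelihood test, Benjamini-Hochberg over all genes). Raw counts were 154 to 236 in control and 88 to 137 in icKO, and the spread within control, 8.67%, stood beside the 7.24% that counting alone would give, and that within icKO, 16.1%, beside 9.44%. By p it ranked 40th of 17258 genes and 17th among the 65 called lower. Since this gene was known to pass when the family was picked, the p places it in the table and is no independent test.

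Plch2 stayed past the threshold when libraries were left out 1 at a time, with log2 fold changes of -0.98 to -0.82 and adjusted p of 0.00208 to 0.0228. Without control 2 and control 4 it was -0.93 (adjusted p = 0.0377). Among libraries with high Y-linked counts, Plch2 read 7.33 and 8.60 CPM in control and 4.00 and 5.31 CPM in icKO, which is -0.77 on the log2 scale (SE 0.20, edgeR adjusted p = 0.376). Among those with low Y-linked counts it read 7.10 and 7.93 CPM in control and 4.14, 4.03 and 3.47 CPM in icKO, which is -0.95 on the log2 scale (SE 0.16, edgeR adjusted p = 0.0825). The groups were apart within both subsets, although neither passed the threshold. With the Y-linked class as a covariate it was -0.87 (adjusted p = 0.00468), and DESeq2 gave -0.88 with an adjusted p of 1.17e-07.

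Plch1, the other eta gene, was measured with 49 to 85 counts per library and did not separate the groups. It read 2.38, 2.94, 2.37 and 2.58 CPM in control and 2.56, 3.29, 2.72, 2.06 and 1.93 CPM in icKO, with a log2 fold change of -0.03 (SE 0.17, interval -0.40 to 0.34). Per kilobase, Plch2 exceeded Plch1 3.21-fold in control. The share of Plch2 in the eta class was 76.6, 72.0, 79.4 and 76.6% in control and 62.5, 63.2, 61.9, 67.6 and 65.7% in icKO. Plch2 thus remained the larger part in every library, while its share went from 76.2 ± 3.08% (SD, n = 4) to 64.2 ± 2.39% (SD, n = 5) with no overlap. The eta sum was 1.25 ± 0.0682 CPM per kilobase in control and 0.807 ± 0.143 in icKO. As these sums contain Plch2, they restate its difference.

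**Figure D3:**
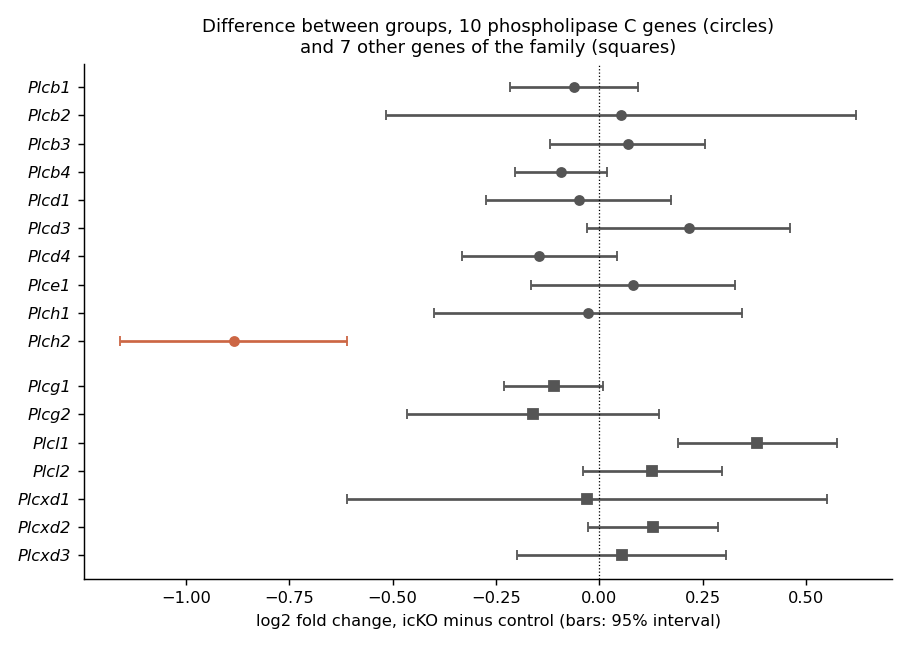
Log2 fold change of icKO over control with its 95% interval for the 10 genes (circles) and the 7 other tested genes of the family (squares). Plch2, in orange, is at -0.88 and is the gene with adjusted p under 0.05; the intervals of the other 9 circles include 0, and Plcl1 lies at 0.38.

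Counted over the family, 0 of the 10 genes were higher, 1 was lower and 9 did not pass, with adjusted p between 0.531 and 0.980 for those 9. Of all tested genes, 0.852% were called in either direction and 0.377% were called lower and 0.475% higher. Plch2 was also the 1 gene of the 10 with its groups fully apart; among all tested genes that held for 4.5%, made up of 2.34% lower and 2.16% higher in icKO. DESeq2 called the same 1 of 10, where it called 1.38% of its genes lower and 1.18% higher. Estimates were above 0 for 4 genes and below 0 for 6, with a median log2 fold change of -0.04, beside -0.00 over all tested genes. For 8 of the 9 genes that did not pass, the 95% interval lay within a 1.5-fold change either way, Plcb2 being the exception. The sum over the 10 genes was 123 ± 11.3 CPM per kilobase in control (SD, n = 4) and 126 ± 8.23 in icKO (SD, n = 5), with overlapping groups. The beta class sum was 105.0 and 109, the delta class sum 14.8 and 14.2, in control and icKO.

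Among 8 other PLC genes, 0 passed edgeR's test; 1 had an unadjusted p under 0.05, as did 11.1% of all tested genes, and 1 was called by DESeq2. Both were Plcl1, which encodes a PLC-like protein that binds inositol phosphates but lacks lipase activity. It read 15.4, 17.3, 19.1 and 20.9 CPM in control and 24.0, 22.2, 23.5, 22.6 and 26.0 CPM in icKO. The groups did not overlap, the log2 fold change was 0.38 (SE 0.09), and the adjusted p was 0.0706 with edgeR and 0.00507 with DESeq2. Control 4, the library with spinal cord markers, was the nearest to icKO, and without it edgeR gave 0.45 with an adjusted p of 0.0368. The gamma enzymes, which receptor tyrosine kinases activate, had log2 fold changes of -0.11 (SE 0.06, Plcg1) and -0.16 (SE 0.14, Plcg2). The sperm enzyme Plcz1 had at most 4 counts in a library and was not tested. The remaining estimates were 0.13 for Plcl2, -0.03 for Plcxd1, 0.13 for Plcxd2 and 0.05 for Plcxd3. The exact serine-histidine-asparagine-threonine-tyrosine run that holds the catalytic histidine was found in coding transcripts of Plcg1, Plcg2, Plcz1, Plcl1 and Plcl2. It was not found in those of the 3 Plcxd genes, which encode proteins with the X domain alone. A catalytic histidine within another sequence was not searched for.

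Around the enzymes, 12 lists of 161 pathway genes, the other PLC genes among them, were examined, of which 151 were tested and 5 passed, 3 higher and 2 lower in icKO. That is 3.31%, beside 0.852% of all tested genes, and it says nothing particular of the lists, which were drawn up with earlier results known. Their median log2 fold change was -0.04. Counts at an unadjusted p under 0.05 are given beside each list, and are to be read against the 11.1% of all 17258 tested genes that pass this threshold.

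Upstream, 2 of 30 tested Gq-coupled receptors rose and none fell with edgeR (9 and 4 at an unadjusted p under 0.05; 5 and 2 with DESeq2). They were Cysltr2, a leukotriene receptor of itch neurons, and Agtr1a, the angiotensin II receptor. Cysltr2 lay at 12.8 to 17.0 CPM in control and 26.1 to 37.7 CPM in icKO, a rise of 1.11 on the log2 scale (SE 0.12, edgeR adjusted p = 0.000592). Agtr1a lay at 18.7 to 29.1 CPM in control and 43.0 to 54.4 CPM in icKO, a rise of 0.93 on the log2 scale (SE 0.12, edgeR adjusted p = 0.00208). Neither receptor's groups overlapped.

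None of the 4 Gq class alpha subunits, which carry the signal from receptor to beta enzyme, passed with edgeR or DESeq2 (at an unadjusted p under 0.05, 1 was higher and 1 lower). Gnaq was at 433 CPM in control and 389 CPM in icKO, and Gna11 at 83.7 and 79.3 CPM. Gna14 stood at 0.17 on the log2 scale (SE 0.07, edgeR adjusted p = 0.398). Gna15, known from blood cells, had -1.03 (SE 0.33, adjusted p = 0.228 with edgeR), from 7 to 32 counts per library.

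The proteins that switch Gq signalling off gave 0 calls with edgeR or DESeq2 among 9 tested RGS (regulator of G protein signalling) and GRK (receptor kinase) genes, of which 2 were higher and 0 lower when p was left unadjusted at 0.05. Grk3 was at 0.37 (SE 0.11) and Rgs2 at 0.32 (SE 0.10) on the log2 scale.

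Of 6 calcium release channels, IP3 receptors and ryanodine receptors together, none rose and 1 fell with edgeR (0 and 3 at an unadjusted p under 0.05). The gene that fell was Ryr2, a ryanodine receptor, which releases calcium in response to calcium. Ryr2 read 103.5, 81.0, 97.5 and 96.6 CPM in control and 74.6, 78.6, 76.3, 67.6 and 74.2 CPM in icKO. The groups were apart, by the small gap between control 2 and icKO 2, and the log2 fold change was -0.35 (SE 0.07, adjusted p = 0.0421 with edgeR). This call was lost when any library other than control 2 was left out (adjusted p of 0.0541 to 0.142 with edgeR), and without control 2 the adjusted p was 0.00578. DESeq2 also called it (adjusted p = 0.0013) and no other gene of this list, so the 3 IP3 receptor genes Itpr1, Itpr2 and Itpr3 passed with neither tool.

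Of 11 tested kinase genes, 8 of protein kinase C and 3 of the related protein kinase D, 0 passed with edgeR, and DESeq2 called 2 lower. Unadjusted, the protein kinase D gene Prkd3 was higher and 2 genes were lower. Those 2, also the DESeq2 calls, were Prkcb, at 84.1 CPM in control and 64.9 in icKO (log2 fold change -0.38, adjusted p = 0.112 with edgeR and 0.0208 with DESeq2), and Prkcd, at 455 and 379 CPM (-0.26, adjusted p = 0.113 with edgeR and 0.0146 with DESeq2). Without control 2, Prkcb passed with edgeR (adjusted p = 0.0315). The 12 diacylglycerol kinases and lipases, which clear the second messenger, gave 0 calls with both tools; unadjusted, 0 were higher and 1 was lower. Dagla, a lipase that makes the endocannabinoid 2-arachidonoylglycerol, was at -0.28 (SE 0.11) and Dgkz at 0.14 (SE 0.07) on the log2 scale.

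Supply and turnover of the substrate showed no call. Among 19 genes of PIP2 synthesis and 13 of inositol phosphate breakdown, 0 passed with edgeR or DESeq2, and unadjusted, each list had 0 higher and 1 lower. Pi4k2a, a phosphatidylinositol 4-kinase, was at -0.21 (SE 0.07), Cds1 at -0.14 (SE 0.07), Impa2, an inositol monophosphatase, at -0.36 (SE 0.10) and Inpp5e at -0.12 (SE 0.06) on the log2 scale. Of 15 small GTPases and exchange factors that bear on the epsilon enzyme, 0 passed with either tool, and unadjusted 2 were higher and 0 lower, among them Rras at 0.13 (SE 0.05) and Rasgrp1 at 0.17 (SE 0.07).

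Of 15 tested TRP channels, 0 rose and 1 fell with edgeR (1 and 3 at an unadjusted p under 0.05; 0 and 3 with DESeq2). This was the cold receptor Trpm8, which needs PIP2 to open. It was at 36.7 to 54.2 CPM in control and 28.9 to 31.8 CPM in icKO, which is -0.66 on the log2 scale (SE 0.10, edgeR adjusted p = 0.00559).

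Among 10 scaffold genes, Homer1, whose product ties receptors to IP3 receptors, rose, and no other passed (unadjusted, 1 was higher and 1 lower; with DESeq2, 1 and 0). It read 20.6, 17.5, 18.6 and 21.1 CPM in control and 23.7, 24.2, 24.7, 24.6 and 25.3 CPM in icKO. The log2 fold change was 0.33 (SE 0.07, adjusted p = 0.0445 with edgeR). Leaving out any library other than control 4 ended the call (adjusted p of 0.0540 to 0.130 with edgeR; 0.0359 without control 4), and so did the Y-linked covariate (adjusted p = 0.0522 with edgeR) and leaving out control 2 and control 4 together (adjusted p = 0.0999 with edgeR).

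Within the libraries of high and of low Y-linked counts, the 5 called pathway genes kept their direction, while 4 of them lost the call in both subsets. Cysltr2 was at 1.03 on the log2 scale among high-count libraries (edgeR adjusted p = 0.196) and 1.17 among low-count ones (0.0100). Agtr1a was at 0.96 (edgeR adjusted p = 0.228) and 0.89 (0.0526) in the same order. Trpm8 was at -0.74 (edgeR adjusted p = 0.171) and -0.56 (0.354). Ryr2 was at -0.38 (edgeR adjusted p = 0.227) and -0.29 (0.766), and Homer1 at 0.30 (0.475) and 0.37 (0.556).

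**Figure D4:**
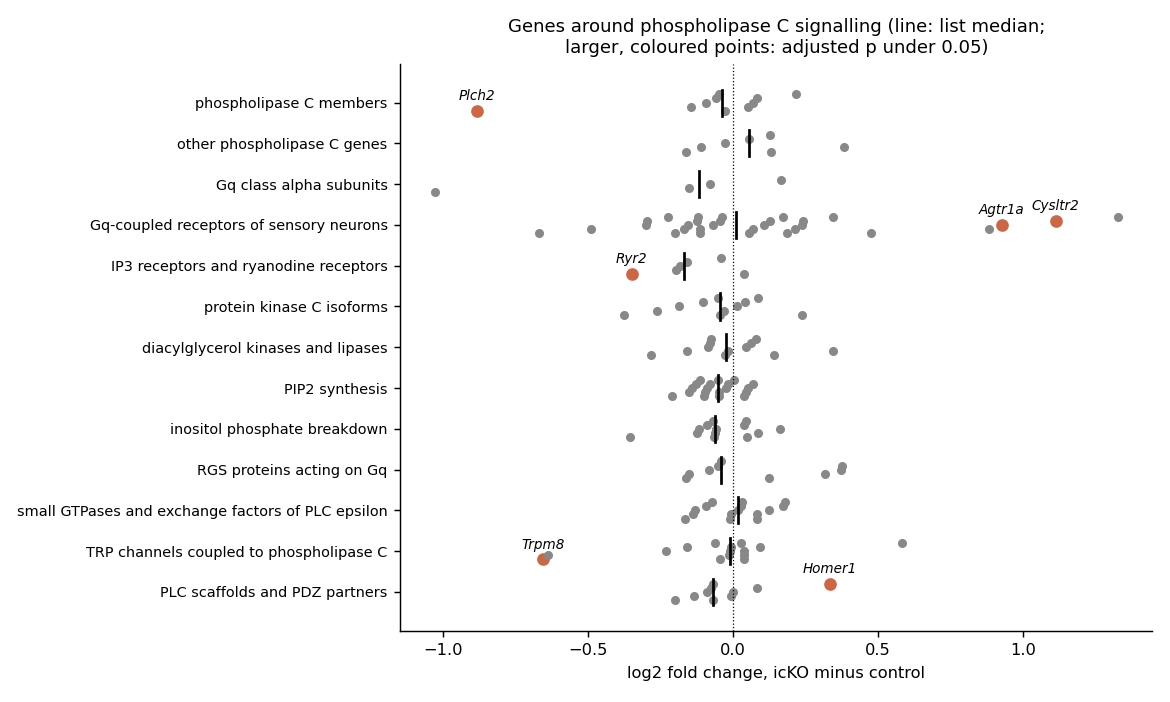
Log2 fold change of icKO over control for each tested gene of the PLC genes and the 12 pathway lists. Black lines are list medians, and larger orange points are genes with adjusted p under 0.05 in edgeR. The 6 such points are Plch2, Ryr2 and Trpm8 below 0, and Cysltr2, Agtr1a and Homer1 above 0; list medians lie between -0.17 and 0.05.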

How the data were processed

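Messenger RNA of whole lumbar ganglia was measured in 9 libraries, grouped by their titles. Each library had its own deposited table of raw counts. The authors' tools, per the submitters' processing notes, were featureCounts 1.5.0-p1, STAR 2.5.2a (mm10 genome) and bcl2fastq 2.20.0.422. Use of strand, and of reads with several map positions, is not given in the sources used here.

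All 55536 identifiers matched the GENCODE annotation on mm10, from which symbols, exons and coding sequences came. In R 4.3.3, edgeR 4.0.16 kept 17258 genes (filterByExpr by group, minimum count 10, minimum total 15), scaled counts with TMM factors and ran the quasi-likelihood test, with Benjamini-Hochberg adjustment over all tested genes and a threshold of 0.05. CPM use the TMM-scaled library totals. SE is |log2 fold change| over the square root of F, and intervals are 95%. Levels between genes were divided by the union of exons. The biological coefficient of variation was 0.115. Floors of 3 counts cover counting error only. The 42-base stretch was found by translating every coding transcript and searching for the conserved serine-histidine-asparagine-threonine-tyrosine run. The longest coding transcript that held the run was used for each gene.

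The members and lists were chosen with earlier results of these data known. Named are all members, the other PLC genes, Prdm12 and, from each list, every gene past the threshold and otherwise up to 2 with the smallest adjusted p; genes outside this rule (Itpr1, Itpr2, Itpr3, Gnaq, Gna11, Prkd3, Adgre1, Zfp142) were named after their values were seen. Alternatives were RLE factors, library size alone, no filter, at least 1 CPM in at least 4 libraries, DESeq2 1.42.0, robust dispersion, a replicate block, the Y-linked class (cut at 20 CPM) and leaving out libraries; leaving out control 2 and control 4 together was chosen after seeing the data. The fit was also run on simulated counts with known changes. These were drawn without the Y-linked split or tissue differences of these libraries, so they bear on neither. Replicate libraries differed by more than sampling noise (chi-square per degree of freedom 6.03 to 23.2).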

Additional observations from a re-analysis of the deposited data

Results flagged for a closer look

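In 4 of 76 groups examined (38 genes in both groups), 1 library stood apart from the others by Dixon's ratio of gap to range; chance gives about 1 in 20. Plcb4 was at 69.2 CPM in control 1 and at 64.4 to 64.7 CPM in the other control libraries. Plcg2, the gamma enzyme of immune cells, was at 6.96 CPM in control 3 and 4.74 to 4.90 CPM in the other control libraries; control 3 also had a macrophage marker sum of 217 CPM against 98.8 to 202 CPM elsewhere, of which Adgre1 made up 42.0 CPM against 5.83 to 12.9 CPM. It was highest for 4 of the 10 macrophage markers and icKO 4 for the other 6, and the part of macrophages in the Plcg2 value was not tested. Gna15 was at 0.790 CPM in icKO 5, against 0.235 to 0.370 CPM in the other icKO libraries. Grk3, a receptor kinase, was at 36.9 CPM in icKO 1, against 41.4 to 43.2 CPM in the other icKO libraries.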

How the results depend on the processing

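The Plch2 call was kept under every scaling, filter, tool, covariate and left-out library tried, except the replicate block (-0.82, adjusted p = 0.0688) and the fits within Y-linked classes, which hold 4 and 5 libraries. The labels do not say whether equal numbers mark paired samples. Deviations of same-numbered libraries from their group means correlated at 0.28, -0.41, -0.24 and 0.16. Differences in tissue makeup and Y-linked class also enter these deviations, so they cannot show whether samples were paired. No library correlated best with the library of its own number. With the replicate block, which drops icKO 5, called genes went from 147 to 48 (28 higher, 20 lower), members called from 1 to 0, and pathway genes called from 5 to 3 (1 lower). Without the filter, 393 genes (172 higher, 221 lower) and 12 pathway genes (8 higher, 4 lower) were called. Those 12 included Plcl1, Prkcb and Grk3, which did not pass in the main fit (edgeR adjusted p of 0.0150, 0.0146 and 0.0227 without the filter). With DESeq2, 425 genes (196 higher, 229 lower) and 15 pathway genes (7 higher, 8 lower) were called. Leaving out 1 library gave 78 to 175 called genes (45 to 85 higher, 33 to 90 lower) and 3 to 6 pathway genes (2 to 4 higher, 1 to 4 lower); called genes were fewest without icKO 1 and most without control 2, while higher pathway genes were most without control 4. No scaling moved the median log2 fold change of all genes by over 0.1.

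Signs of estimates near 0 changed as follows, and the cause was not tested. With the replicate block Plch1 was 0.053. In libraries with high Y-linked counts, Plch1 was 0.31, Plcb2 -0.44, Plcd1 0.0065, Plce1 -0.020 and Plcxd1 0.57; in those with low counts, Plcg2 was 0.070 and Plcxd3 -0.055. Without control 2 and control 4, Plch1 was 0.082, Plcb2 -0.050, Plcd4 0.029 and Plcxd1 0.28. Leaving out 1 library gave -0.11 to 0.23 for Plcb2, -0.14 to 0.012 for Plcd1, -0.034 to 0.16 for Plce1, -0.21 to 0.0045 for Plcg2, -0.14 to 0.060 for Plch1, -0.18 to 0.11 for Plcxd1 and -0.0052 to 0.20 for Plcxd3. Among tested PLC genes, depth limits Plcb2 and Plcxd1 most, both near 1 CPM. The replicate block also ended the calls of Ryr2 (adjusted p = 0.210 with edgeR) and Homer1 (adjusted p = 0.196 with edgeR); the fits within Y-linked classes ended those of Agtr1a, Trpm8, Ryr2 and Homer1 in both classes and of Cysltr2 in the high class.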

Other observations

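Once group means were removed, the 3 genes whose log2 CPM followed Plch2 most closely over the 9 libraries, among 9912 protein-coding genes with a mean of at least 10 CPM, were Zfp608, Uba7 and Ncapd2. Zfp608 gave Pearson r = 0.91 and Spearman rho = 0.98, Uba7 0.91 and 0.58, and Ncapd2 0.90 and 0.82. Without icKO 2 and icKO 5, the libraries farthest from the median of Plch2, r was 0.90, 0.56 and 0.55. These are descriptions, since the best of many genes were taken and any difference in tissue makeup between libraries enters every gene. None of the 3 differed between the groups as Plch2 did, with log2 fold changes of 0.12, -0.05 and -0.04.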
